A study of Mus musculus with 4 samples.

Results

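Heat shock and endoplasmic reticulum (ER) stress genes were followed in sorted mouse mammary tumor cells with and without a deletion aimed at Lsd1. The 41 genes form a list chosen by function, of cytosolic and mitochondrial chaperones, sensors and transcription factors of the unfolded protein response, ER chaperones and folding enzymes, and targets of the integrated stress response, and all were found by symbol among the 23951 gene rows of the deposited expression table. All libraries came from female mice with the MMTV-PyMT transgene, in which polyoma middle T antigen drives mammary tumors, and with the R26Y reporter, which switches on yellow fluorescent protein after Cre recombination. Adenovirus with Cre under the Krt8 promoter (Ad-K8-Cre) had been put into the ducts 2 to 3 months earlier, so the sorted YFP+ cells descend from cells that took up virus and had an active Krt8 promoter at that time. There were 2 wild-type libraries (Lsd1+/+) and 2 libraries labelled knockout (Lsd1L/L conditional alleles). The labels give neither the age of the mice nor whether each library came from its own animal, and every p-value here reflects library-to-library spread alone, which may be technical.

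Chaperones bind unfolded proteins and help them fold or pass them on for destruction. In the cytosol HSF1 switches on HSP70, HSP90, their J-domain partners and the small heat shock proteins when unfolded proteins pile up. In the ER the sensors IRE1, ATF6 and PERK start the unfolded protein response, which raises ER chaperones and slows translation, and PERK shares its arm, through ATF4, with the integrated stress response to amino acid shortage. Secretory cells such as those of the mammary gland and plasma cells rely on the ER arm to handle their load of secreted protein.

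Expression is given in FPKM, that is, fragments scaled by transcript length and library total. The columns summed to between 401786 and 449838 FPKM, and steps between the lowest values gave the wild-type libraries 1.03 and 0.85 times, and the first library labelled knockout 0.928 times, the depth of the second one. Kdm1a, which encodes LSD1, was at 52.5 and 22.9 FPKM in the wild-type pair, against 20.2 and 22.8 FPKM in the pair labelled knockout (difference -0.67 in mean log2(FPKM + 1), SE 0.46, limma adjusted p = 0.34), and the tissue label of these samples still reads Lsd1+/+, so they are called by their label throughout. Levels of cell type markers differed as well. The 8 epithelial markers summed to 12198 and 2712 FPKM in the wild-type pair, against 721 and 744 in the pair labelled knockout, the 12 lymphocyte markers to 17.1 and 73.5 against 2158 and 2072, and the 10 macrophage and dendritic markers measured to 600.0 and 14813 against 1516 and 1401 FPKM. Of these lists 1 epithelial marker (Cldn3) fell, 12 lymphocyte markers rose and 0 macrophage markers passed; no epithelial, lymphocyte or macrophage marker measured was at 0 in any library. In such bulk samples, fewer cells of a type and less RNA per cell cannot be told apart, and the part of cell makeup in the results below was not tested.

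No heat shock or ER stress gene passed the test between the groups. Of the 41 genes 40 had at least 1 FPKM in at least 2 libraries and were tested. Of these 0 passed an adjusted p of 0.05 in either direction (limma over 11138 genes). Over all genes tested 9.51% were called higher and 6.99% lower in the pair labelled knockout. The fit took a shared spread for both groups, which a wide gap within wild-type (below) raises. The 0 calls therefore do not show that these genes changed less than others. At an unadjusted limma p under 0.05 there were 9 of the 40, 4 higher and 5 lower, against 4395 of the 11138 genes tested. The median difference was -0.24 (range -2.48 to 1.72, knockout label minus wild-type, on the log2(FPKM + 1) scale) with 18 genes above and 22 below 0, beside a median of 0.08 over all genes tested. Dropping the first wild-type library turned the median of the 40 to 0.20, and dropping the second moved it to -0.59. The values of the groups did not overlap for 10 genes that were higher and 14 that were lower in the pair labelled knockout, that is, 24 of 40, while 39.3% and 32.1% of all genes were apart in these directions.

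**Figure D1:**
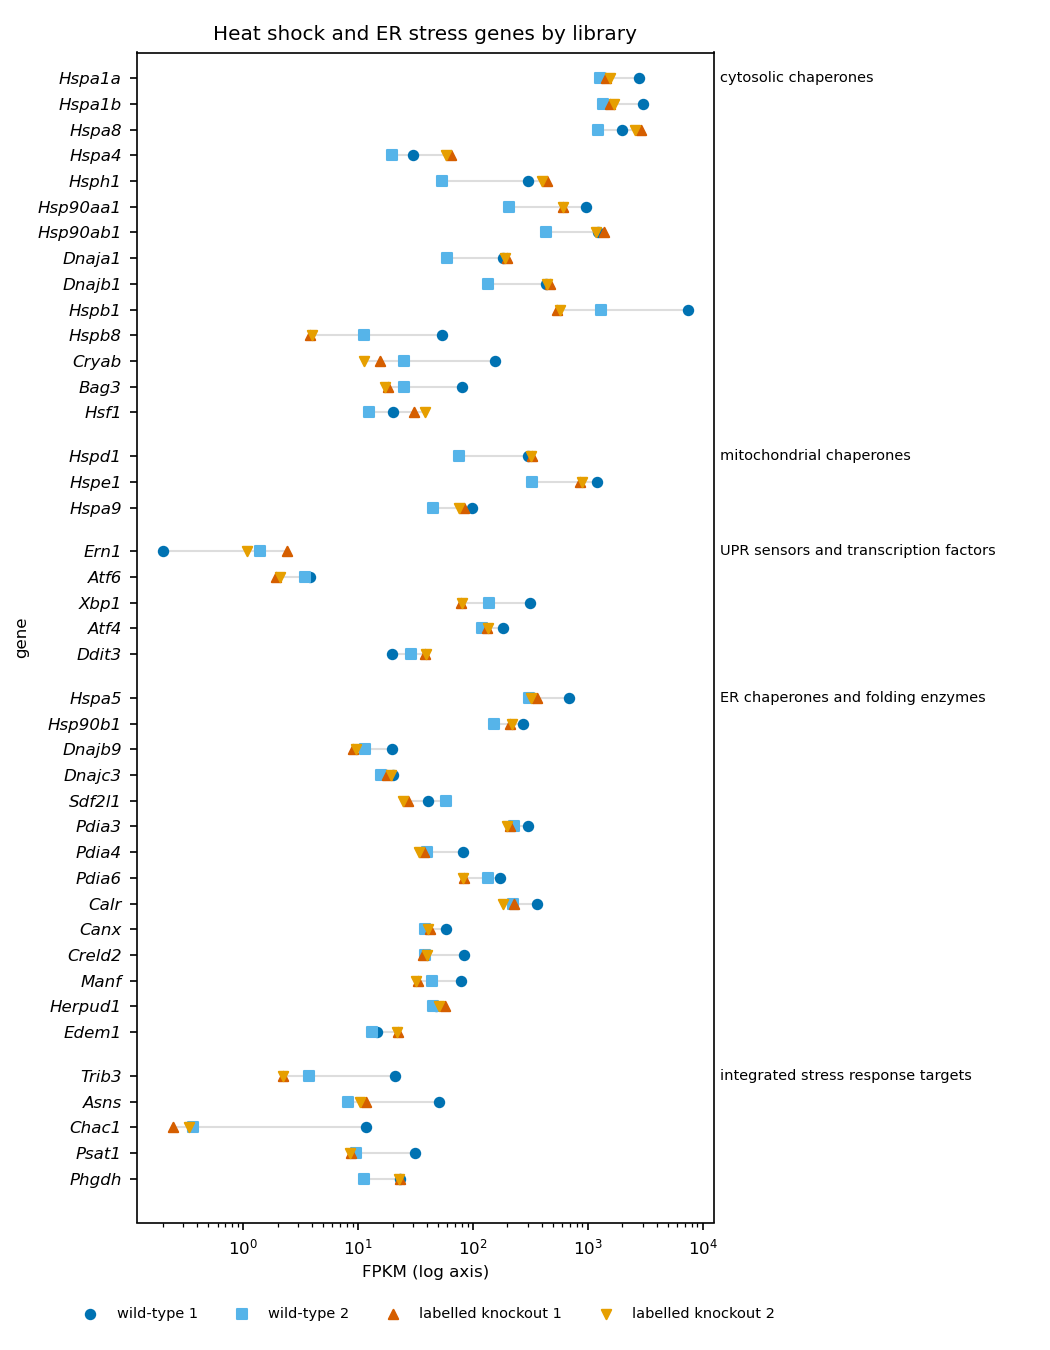
Expression of the 41 genes in each library (FPKM, log axis), by role. Circles and squares are the wild-type libraries and triangles those labelled knockout; the triangles nearly coincide for most genes, while the wild-type symbols lie far apart, from 7419 to 1304 FPKM for Hspb1.

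**Figure D2:**
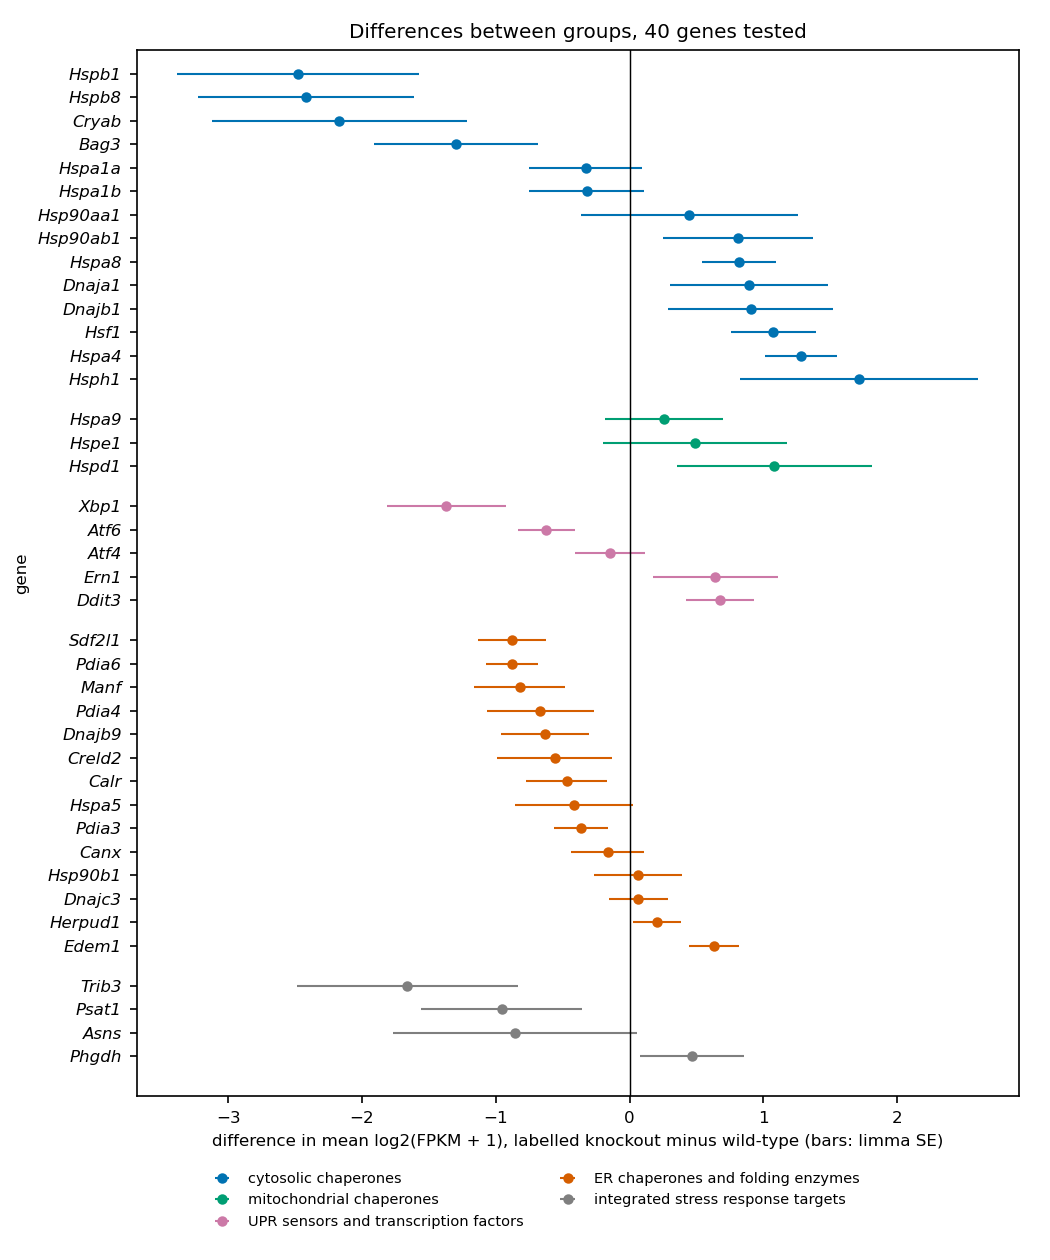
Difference in mean log2(FPKM + 1), libraries labelled knockout minus wild-type, for the 40 genes tested; bars are limma standard errors (n = 2 and 2). The small heat shock proteins lie lowest, near -2.48, Hsph1 lies highest at 1.72, and no gene passed the threshold.

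The wild-type libraries differed from each other in these genes far more than the libraries labelled knockout did. The first wild-type library had the higher value for 37 of the 40 genes (92.5%), against 51.8% of all genes tested. It was also the highest of the 4 libraries for 27 of them (67.5%, against 31.4% of all genes). The second wild-type library was the lowest for 22 (55%, against 28.1%). The wild-type pair lay more than 1 apart on the log2(FPKM + 1) scale for 22 genes (55%, against 22.4% of all genes tested), with a median gap of 1.06. In the pair labelled knockout 0 of the 40 did so, and the median gap was 0.09. The gap within wild-type was widest for cytosolic and mitochondrial chaperones and for integrated stress response targets (medians 1.62, 1.88 and 1.91) and narrower for ER chaperones (0.64), beside 0.50 for all genes. The first wild-type library also had the highest epithelial marker sum, and the second the highest macrophage sum (above); the part of either in this gap was not tested.

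**Figure D3:**
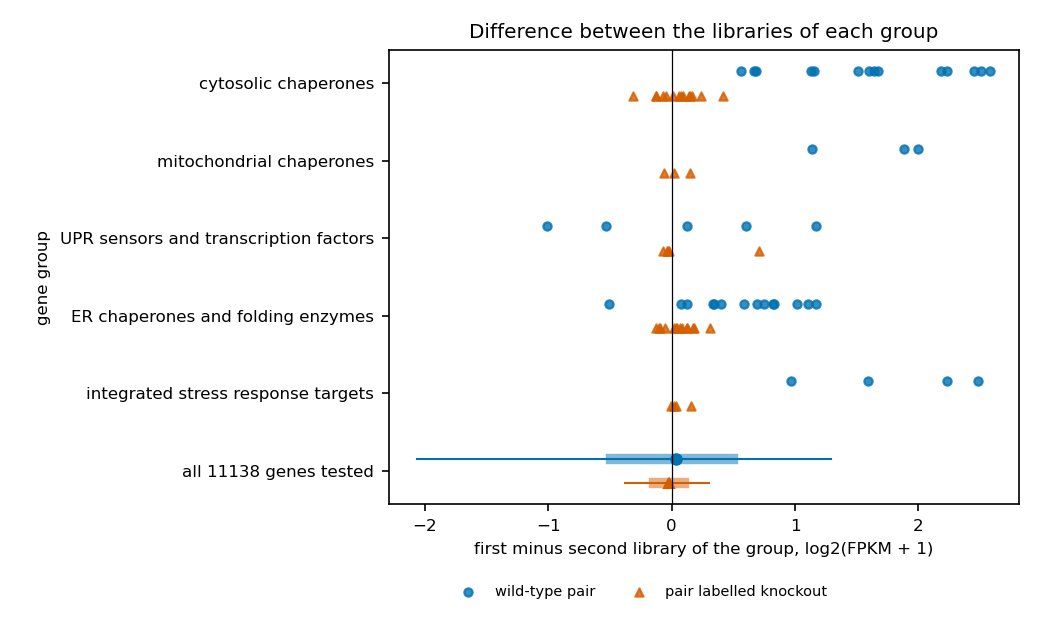
First minus second library of each group, in log2(FPKM + 1), for each gene group (circles for the wild-type pair, triangles for the pair labelled knockout). The bottom rows show all 11138 genes tested as the median (symbol), the 25th to 75th percentile (thick line) and the 5th to 95th percentile (thin line, -2.06 to 1.29 for wild-type). All 14 cytosolic and all 3 mitochondrial chaperones lie to the right of 0 for wild-type.

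The direction of many genes turned on which wild-type library was used. With the first wild-type library left out, 18 of the 40 genes were called higher and 10 lower, against 37.3% and 32.0% of all genes. With the second left out, 7 were called higher and 26 lower, against 38.3% and 32.7%. More genes of the list were thus called lower than higher when the first library alone stood for wild-type, and fewer when the second did. With 1 wild-type library the fit takes the spread from the pair labelled knockout alone and assumes that wild-type varies as little. Without either library labelled knockout 0 genes of the whole table passed.

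The small heat shock proteins and their partner were the cytosolic genes with lower values in the libraries labelled knockout. Hspb1, which encodes the small heat shock protein HSP27, was at 7419 and 1304 FPKM in the wild-type pair, against 544 and 572 FPKM in the pair labelled knockout (difference -2.48, SE 0.91, adjusted p = 0.13). In the first wild-type library it was the most abundant of all gene rows, and it ranked at 31 in the second, while the pair labelled knockout had it at 101 and 98. Both wild-type libraries were above both others, but they lay further from each other than the lower of them lay from the libraries labelled knockout. Hspb8, a small heat shock protein that works with BAG3, was at 54.4 and 11.2 against 3.80 and 3.96 FPKM (difference -2.42, SE 0.81, adjusted p = 0.11). Cryab, which encodes alpha-B crystallin, was at 155 and 25.2 against 15.4 and 11.3 FPKM (difference -2.17, SE 0.95, adjusted p = 0.18). Bag3, the co-chaperone that links HSP70 and HSPB8 to autophagy, was at 80.4 and 25.2 against 18.4 and 17.2 FPKM (difference -1.30, SE 0.61, adjusted p = 0.20). These 4 genes shared the same order of libraries, with the first wild-type library highest, the second next and both labelled knockout below. Without the first wild-type library their differences were -1.22, -1.32, -0.88 and -0.48. The same order held for the epithelial keratin Krt18, at 4312 and 949 FPKM in the wild-type pair, against 254 and 261 FPKM in the pair labelled knockout, whose part was not tested.

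The HSP70 and HSP90 machinery followed another order, in which the second wild-type library was lowest. That held for 10 of the 14 cytosolic genes and for all 3 mitochondrial chaperones. Hspa8, the constitutive cytosolic HSP70, was at 1984 and 1235 FPKM in the wild-type pair, against 2922 and 2601 FPKM in the pair labelled knockout (difference 0.82, SE 0.27, adjusted p = 0.12). Hspa4, an HSP110-type exchange factor of HSP70, was at 30.1 and 19.98 against 64.0 and 58.0 FPKM (difference 1.28, SE 0.27, adjusted p = 0.053), the lowest adjusted p among the 40 genes. In both, the libraries labelled knockout were above both wild-type libraries. With a filter at 5 FPKM, which leaves 7104 genes, Hspa4 passed (adjusted p = 0.047). Hsph1, the other HSP110 exchange factor, was at 299.6 and 54.1 against 444 and 401 FPKM (difference 1.72, SE 0.89, adjusted p = 0.23); leaving out the first wild-type library gave 2.94, and leaving out the second gave 0.49. Hsf1, the transcription factor that drives heat shock genes, was at 20.3 and 12.4 against 30.8 and 38.6 FPKM (difference 1.07, SE 0.32, adjusted p = 0.093).

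Some genes of this machinery lay in the libraries labelled knockout close to the first wild-type library and above the second. Dnajb1, the J-domain protein that delivers clients to HSP70, was at 435 and 135 FPKM in the wild-type pair, against 469 and 444 FPKM in the pair labelled knockout (difference 0.91, SE 0.62, adjusted p = 0.34). Dnaja1, another J-domain partner, was at 183 and 59.7 against 199 and 191 FPKM. The groups of both genes were apart, but the first wild-type library lay near the pair labelled knockout: without the second wild-type library the differences were 0.07 and 0.09. Hsp90ab1, the constitutive cytosolic HSP90, was at 1232 and 431 against 1390 and 1177 FPKM. Hsp90aa1, its inducible form, was at 970.4 and 205 against 612 and 606 FPKM, so the libraries labelled knockout lay between the wild-type ones instead. Its difference of 0.45 became 1.56 on leaving out the first wild-type library and -0.67 on leaving out the second.

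The stress-inducible HSP70 genes were high in every library. Hspa1a was at 2792 and 1273 FPKM in the wild-type pair, against 1440 and 1568 FPKM in the pair labelled knockout, and Hspa1b was at 3010 and 1354 against 1548 and 1686 FPKM. The first wild-type library was highest and the other 3 lay close together, so the groups overlapped (differences -0.33 and -0.32, SE 0.42 and 0.43; adjusted p = 0.60 and 0.61). These are near-identical copies, and the ratio of Hspa1b to Hspa1a was 1.06 to 1.08 in all 4 libraries, so reads of the copies may have been split between them and the values are uncertain as separate genes. Their promoters carry heat shock elements, the sites that HSF1 binds as inverted GAA repeats, and one is printed here to show the element upstream of the stress-inducible HSP70 genes, beside one of Hspb1. A pair of units (GAANNTTC or TTCNNGAA, either strand) was searched in the 250 bases before the start in the RefSeq promoter table of GRCm38.p6, where 33 of the 41 genes had an entry. It occurred in 8 of the 33 and in 14.5% of all genes. In the stretches below, which lie upstream of the start and outside annotated exons, capitals mark the units of 1 match.
Hspa1a, chr17:34972233-34972280, minus strand: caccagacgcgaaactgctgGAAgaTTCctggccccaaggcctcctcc
Hspb1, chr5:135887802-135887849, plus strand: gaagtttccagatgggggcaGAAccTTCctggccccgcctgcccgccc
The stretch of Hspa1b at chr17:34959315-34959362 has the same letters as that of Hspa1a. Of the 5 cytosolic members with a pair of units (Hspa1a, Hspa1b, Hsph1, Dnaja1 and Hspb1), Hsph1 and Dnaja1 had higher values in both libraries labelled knockout, Hspb1 had lower values and the HSP70 copies overlapped between groups.

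The mitochondrial chaperones form a machine with HSP70 on the import side and the HSP60 ring with its HSP10 lid inside. Hspd1 (HSP60) was at 304 and 75.5 FPKM in the wild-type pair, against 325 and 321 FPKM in the pair labelled knockout (difference 1.08, SE 0.73, adjusted p = 0.33). Hspe1 (HSP10) was at 1202 and 325 against 859 and 898 FPKM (difference 0.49, SE 0.69, adjusted p = 0.63). Hspa9, the mitochondrial HSP70, was at 99.3 and 44.6 against 84.0 and 75.6 FPKM (difference 0.25, SE 0.44, adjusted p = 0.70). In all 3 the second wild-type library was the lowest, and for Hspe1 and Hspa9 the first was the highest, so their differences turned to -0.45 and -0.31 without the second wild-type library. Hspd1 and Hspe1 are neighbours read in opposite directions, and the stretch between their starts holds the only runs of 3 units (GAANNTTCNNGAA, either strand), overlapping each other, found upstream of the 33 genes; 0.514% of all genes had one. One of these runs is printed from both strands to show that the genes share the site. Capitals mark its 3 units, which hold 2-unit matches as well. An exon of Hspd1 is annotated over these bases.
Hspe1, chr1:55088056-55088085, plus strand: ccgttctaGAAccTTCcgGAAggccccgcg
Hspd1, chr1:55088055-55088084, minus strand: gcggggccTTCcgGAAggTTCtagaacgga

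The unfolded protein response is read from its sensors and transcription factors first. Xbp1, whose mRNA IRE1 splices to make an active factor and which secretory cells need, was at 314 and 139 FPKM in the wild-type pair, against 79.6 and 81.0 FPKM in the pair labelled knockout (difference -1.37, SE 0.44, adjusted p = 0.11); gene-level values do not separate its spliced form. Both wild-type libraries were above both others, and leaving out the first or the second of them gave -0.78 or -1.96. Atf6, the ER membrane sensor, was at 3.85 and 3.45 against 1.94 and 2.09 FPKM (difference -0.62, SE 0.21, adjusted p = 0.12). Ern1, which encodes IRE1 alpha, was low and uneven, at 0.200 and 1.41 against 2.39 and 1.08 FPKM (difference 0.64, SE 0.47, adjusted p = 0.37). Atf4, the factor translated when eIF2 alpha is phosphorylated, was at 183 and 120 against 132 and 136 FPKM (difference -0.15, SE 0.26, adjusted p = 0.71). Ddit3, which encodes the pro-apoptotic factor CHOP, was at 19.6 and 28.7 against 38.2 and 38.8 FPKM (difference 0.68, SE 0.26, adjusted p = 0.14). Ddit3 and Ern1 thus had their lowest value in the first wild-type library, unlike most of the 41 genes. Among plasma cell markers, whose cells carry much Xbp1, Mzb1 was at 0.54 and 6.84 against 52.9 and 46.4 FPKM. Sdc1, which epithelium also carries, went the other way, at 88.2 and 19.2 against 10.8 and 9.87 FPKM. The 7 measured summed to 90.6 and 75.02 against 152 and 148 FPKM, where Sdc1 made up most of the 90.6. Irf4 was called higher, at 0.076 and 0.82 against 4.47 and 4.59 FPKM. So was Pou2af1, at 0.86 and 0.44 against 21.0 and 23.2 FPKM. Igj, not called, had 0.06 and 44.0 against 60.9 and 62.3 FPKM. The groups overlapped for Prdm1 and for Tnfrsf17, which was at 0 in 1 library. The part of these markers was not tested.

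ER chaperones and folding enzymes had slightly lower values on balance in the libraries labelled knockout, with no gene past the threshold. Of the 14 genes 10 had a negative and 4 a positive difference (range -0.88 to 0.63, median -0.44). Over all 11138 genes tested 5171 were negative and 5967 positive. The median of the 14 became -0.07 on dropping the first wild-type library and -0.72 on dropping the second. Hspa5, the ER HSP70 known as BiP and the master chaperone of the organelle, was at 687 and 305 FPKM in the wild-type pair, against 364 and 323 FPKM in the pair labelled knockout (difference -0.42, SE 0.44, adjusted p = 0.52). The first wild-type library stood alone and the other 3 lay together; without it the difference was 0.17. Hsp90b1, the ER HSP90 called GRP94, was at 275 and 154 against 211 and 219 FPKM (difference 0.06, SE 0.33, adjusted p = 0.91), and median centring turned the sign to -0.03. Pdia6, a disulfide isomerase, had the lowest adjusted p of this group: it was at 172 and 135 against 83.0 and 81.7 FPKM (difference -0.88, SE 0.19, adjusted p = 0.056; 0.049 with a filter at 5 FPKM). Sdf2l1, a cofactor of BiP, was the gene of this group with its highest value in the second wild-type library, at 40.7 and 58.2 against 27.2 and 24.8 FPKM (difference -0.88, SE 0.25, adjusted p = 0.089).

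The other folding genes had differences on both sides of 0. The lectin chaperone Calr was at 359 and 222 against 226 and 182 FPKM, and its membrane-bound counterpart Canx at 57.8 and 38.1 against 42.5 and 41.1 FPKM. The groups overlapped for both. Pdia3, the isomerase that works with these lectins, was at 303 and 229 against 211 and 198 FPKM, and Pdia4 at 81.4 and 39.8 against 37.2 and 33.9 FPKM. Manf, a secreted ER stress protein, was at 78.2 and 43.8 against 33.6 and 32.0 FPKM (difference -0.82, SE 0.34, adjusted p = 0.16). These 3 were apart between groups, with the second wild-type library near the libraries labelled knockout for Pdia4. Creld2 was at 84.1 and 38.5 against 36.98 and 39.7 FPKM, so only its first wild-type library stood out of the 4. The J-domain proteins of the ER lumen, Dnajb9 and Dnajc3, were at 19.9 and 11.4 against 9.05 and 9.72 FPKM and at 20.1 and 15.7 against 17.8 and 19.5 FPKM. Edem1 and Herpud1, which serve degradation, had higher values. Edem1, a lectin that sends misfolded glycoproteins out of the ER, was at 14.5 and 13.3 against 22.4 and 21.8 FPKM (difference 0.63, SE 0.19, adjusted p = 0.091). Herpud1, a scaffold of the same route, was at 47.7 and 45.2 against 57.2 and 50.4 FPKM (difference 0.21, SE 0.18, adjusted p = 0.44). Both had groups that did not overlap, as had 39.3% of all genes tested in this direction. Further degradation genes outside the 41 went both ways: Syvn1 was higher (difference 0.72) and Os9 lower (-1.14).

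Some promoters of ER chaperones and folding genes share a letter pattern. The ER stress response element (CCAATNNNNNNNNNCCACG, either strand), to which NF-Y and ATF6 bind, was found in the 250 bases upstream of 7 of the 33 genes with a promoter entry, against 0.13% of all genes. The 7 are all ER chaperones or folding genes. A shorter form with a single spacer base (ATTGGNCCACG) occurred upstream of Herpud1, against 0.037% of all genes, and the letters TGACGTGG of the unfolded protein response element upstream of 0 of the 33 (0.603% of all genes). The sequences are given from GRCm38.p6, 5′ to 3′ on the strand of the gene. Capitals mark the fixed letters, which the search required, so their likeness is no result. They read CGTGG to ATTGG where the site lies on the opposite strand. The Hspa5 stretch is kept short because an exon is annotated over it, and none was found over the others.
Hspa5, chr2:34772020-34772049, plus strand: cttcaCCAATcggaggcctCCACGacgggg
Hsp90b1, upstream site, chr10:86705618-86705676, minus strand: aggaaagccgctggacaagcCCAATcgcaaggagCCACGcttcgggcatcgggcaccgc
Hsp90b1, site nearer the start, chr10:86705513-86705571, minus strand: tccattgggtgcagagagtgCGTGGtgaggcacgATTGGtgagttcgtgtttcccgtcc
Calr, chr8:84847055-84847113, minus strand: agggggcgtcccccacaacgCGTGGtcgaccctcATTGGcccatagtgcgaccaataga
Canx, chr11:50325780-50325838, minus strand: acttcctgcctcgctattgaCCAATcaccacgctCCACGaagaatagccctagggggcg
Pdia6, chr12:17266471-17266529, plus strand: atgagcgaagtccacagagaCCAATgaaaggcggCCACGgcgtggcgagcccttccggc
Dnajc3, chr14:118937807-118937865, plus strand: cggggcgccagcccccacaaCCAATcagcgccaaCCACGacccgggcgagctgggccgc
Creld2, chr15:88819500-88819558, plus strand: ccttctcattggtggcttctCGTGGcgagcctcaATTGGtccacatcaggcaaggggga
Herpud1, short form, chr8:94386357-94386407, plus strand: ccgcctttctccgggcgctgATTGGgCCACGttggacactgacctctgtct
The differences of the 7 genes with the long element ran from -0.88 (Pdia6) to 0.06 (Dnajc3, whose sign turned with median centring and with quantile normalization), and the groups overlapped for 6 of them. In the 6 ER genes with a promoter entry and no long element the groups did not overlap, 2 higher (Herpud1 and Edem1) and 4 lower, beside 39.3% and 32.1% of all genes.

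Integrated stress response targets stood out in a single library. Chac1, a glutathione-degrading enzyme switched on by ATF4 and CHOP, was at 11.8 FPKM in the first wild-type library. The second had 0.368 FPKM, and the pair labelled knockout 0.245 and 0.341 FPKM, so the gene was under the filter on low values. Trib3, a pseudokinase that feeds back on ATF4, was at 21.2 and 3.73 FPKM in the wild-type pair, against 2.24 and 2.25 FPKM in the pair labelled knockout (difference -1.66, SE 0.83, adjusted p = 0.22). Asns, asparagine synthetase, was at 50.8 and 8.26 against 11.8 and 10.5 FPKM (difference -0.85, SE 0.91, adjusted p = 0.53). Psat1 and Phgdh, enzymes of serine synthesis, were at 31.3 and 9.71 against 8.70 and 8.47 FPKM and at 23.2 and 11.4 against 23.1 and 22.8 FPKM. All 5 had their highest value in the first wild-type library; for Chac1, Trib3, Asns and Psat1 it lay apart from the other 3, whereas Phgdh was level with the libraries labelled knockout there. For Asns, dropping the first wild-type library gave 0.39 and dropping the second gave -2.10. The C/EBP-ATF response element (TGATGNAA, either strand), through which ATF4 acts, was found upstream of Asns, Chac1 and Herpud1 among the 33 genes and of 3.91% of all genes. Those of the 2 target genes are shown with the fixed letters in capitals; the Chac1 site is on the opposite strand and clear of exons, whereas an Asns exon is annotated over the other, whose 2-unit heat shock match it overlaps.
Asns, chr6:7693214-7693243, minus strand: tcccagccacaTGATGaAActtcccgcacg
Chac1, chr2:119351029-119351076, plus strand: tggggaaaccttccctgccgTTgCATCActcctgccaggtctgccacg

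The other genes of these pathways did include calls. Of 131 further chaperone, ER stress and integrated stress response genes 119 were tested, and 11 rose and 10 fell (limma, adjusted p under 0.05), beside 9.51% and 6.99% of all genes; the split was 7 and 11 after median centring and 8 and 11 after quantile normalization. On dropping either library labelled knockout 0 of the 21 remained, as for the table as a whole. In 40 tested cytosolic chaperones and co-chaperones 9 rose and 1 fell. A positive difference was seen for 31 of the 40, beside 5967 of the 11138 genes tested in all. The median was 0.71 (0.61 to 0.80 under the scaling alternatives). It was 0.96 on dropping the first wild-type library and 0.43 on dropping the second. Cacybp, which encodes the calcyclin-binding protein, was at 79.6 and 83.9 FPKM in the wild-type pair, against 287 and 299.7 FPKM in the pair labelled knockout (difference 1.83, SE 0.15, adjusted p = 0.024). Ahsa1, the activator of the HSP90 ATPase, was at 80.5 and 91.2 against 292 and 298 FPKM (difference 1.77, SE 0.16, adjusted p = 0.024). Both wild-type libraries lay close together for these genes, unlike for Hsp90aa1 and Hsp90ab1. Since these genes were named for their low p, which a close wild-type pair favours, no conclusion is drawn from this.

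Further genes of this list rose. Stip1, the adaptor between HSP70 and HSP90, was at 109 and 63.3 against 280.0 and 288 FPKM (difference 1.76, SE 0.31, adjusted p = 0.041). Ptges3, the p23 co-chaperone, was at 59.0 and 49.8 against 156 and 136 FPKM (difference 1.41, SE 0.19, adjusted p = 0.031), and Chordc1, another HSP90 partner, at 33.0 and 24.7 against 73.6 and 72.6 FPKM (adjusted p = 0.038). The polyubiquitin gene Ubb, the most abundant of the list, was at 1531 and 1547 against 2529 and 2477 FPKM (difference 0.70, SE 0.11, adjusted p = 0.036), and the J-domain genes Dnajb6, Dnajc2 and Dnajc5 rose as well (differences 0.90, 1.02 and 1.08). Some of these calls lay near the threshold and were lost under other settings: Dnajc2 with median centring and quantile normalization (adjusted p = 0.053 and 0.050003), Dnajc5 with those (0.060 and 0.058), total scaling (0.056) and a pseudocount of 0.1 (0.052), Stip1 with total scaling (0.051) and Ubb with a plain prior (0.073). The gene that fell was the small heat shock protein Hspb6, at 3.75 and 3.63 against 1.23 and 0.797 FPKM (adjusted p = 0.044; 0.056 with total scaling and 0.055 with a pseudocount of 0.1). The 8 subunits of the cytosolic ring chaperonin (Tcp1 and the Cct genes), a group singled out after its values were seen, were all higher in both libraries labelled knockout than in both wild-type libraries (differences 0.46 to 1.03, positive in all 8 under each scaling), as were 39.3% of all genes, and 0 of the 8 passed (lowest adjusted p = 0.081). Their median of 0.72 became 1.05 on dropping the first wild-type library and 0.36 on dropping the second. The lymphocyte markers rose in the same libraries, and their part was not tested.

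**Figure D4:**
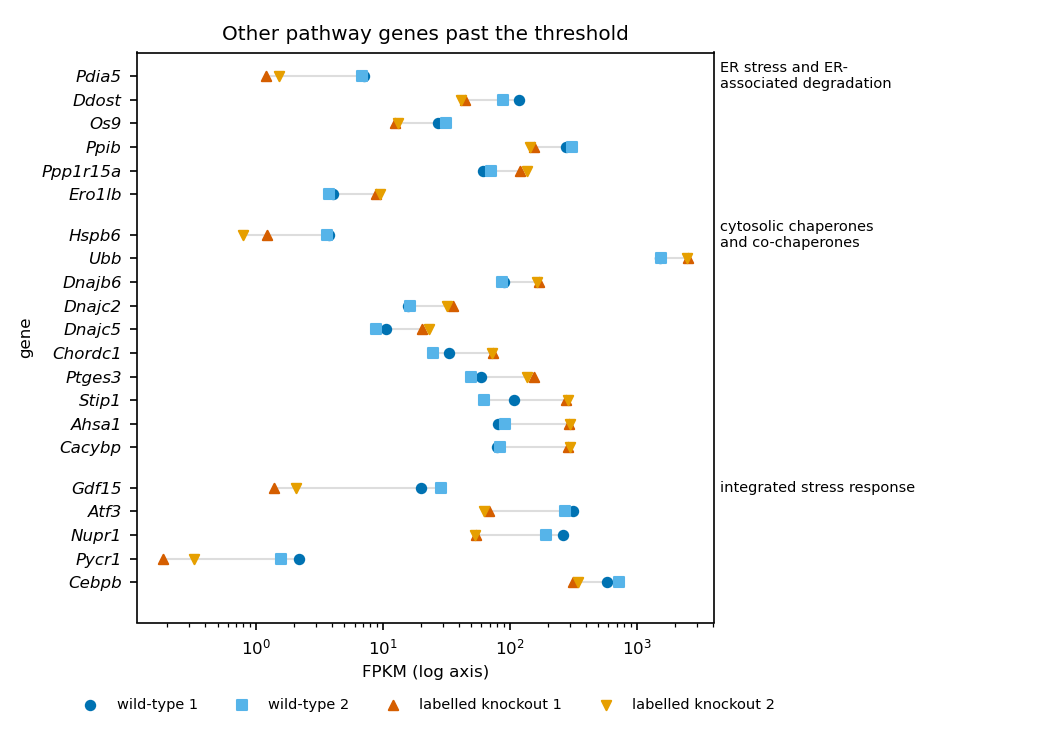
Expression in each library (FPKM, log axis) of the 21 other pathway genes past the threshold, by list. The wild-type symbols lie apart from the triangles of the libraries labelled knockout; they nearly coincide for Cacybp (79.6 and 83.9 FPKM) and are further from each other for Stip1 (109 and 63.3 FPKM).

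In the ER list 2 of 41 tested genes rose and 4 fell, beside 9.51% and 6.99% of all genes. The median was -0.30, and dropping the first wild-type library moved it to -0.015, with 20 genes above and 21 below 0. Ppib, the ER cyclophilin and the most abundant gene among these calls, fell from 279 and 309 FPKM to 154 and 144 FPKM (difference -0.98, SE 0.15, adjusted p = 0.036). Pdia5 (-1.76, SE 0.22), the oligosaccharyltransferase subunit gene Ddost (-1.25, SE 0.22) and the degradation lectin Os9 (-1.14, SE 0.20) fell too, with adjusted p of 0.029, 0.041 and 0.040. The oxidase gene Ero1lb rose from 4.02 and 3.78 to 8.91 and 9.54 FPKM (adjusted p = 0.047), a call lost with total scaling (0.053), median centring (0.059), quantile normalization (0.059) and a pseudocount of 0.1 (0.051). Ppp1r15a, which encodes GADD34, the phosphatase subunit that ends the eIF2 alpha arm, rose from 61.7 and 71.7 to 120 and 137 FPKM (difference 0.94, SE 0.18, adjusted p = 0.047), a call lost with median centring (0.053), a plain prior (0.058) and a pseudocount of 0.1 (0.051). The call of Ddost was lost with total scaling (0.063). The most abundant gene of the list in the first wild-type library, Sec61b of the translocon, was at 327 and 246 against 164 and 163 FPKM.

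In the integrated stress response list 1 of 32 tested genes rose, the same Ppp1r15a, and 5 fell, beside 9.51% and 6.99% of all genes. Atf3, a stress-induced transcription factor, fell from 316 and 271 FPKM to 68.4 and 62.8 FPKM (difference -2.14, SE 0.17, adjusted p = 0.024). Gdf15, a secreted stress cytokine, fell from 19.9 and 28.7 to 1.38 and 2.08 FPKM (difference -3.20, SE 0.30, adjusted p = 0.024), and Nupr1, a stress-induced chromatin protein, from 264 and 193 to 54.6 and 53.8 FPKM (difference -2.04, SE 0.22, adjusted p = 0.025). Cebpb, the most abundant of the list, fell from 586 and 724 to 317 and 344 FPKM (adjusted p = 0.041; 0.058 with a plain prior), and the proline synthesis gene Pycr1 from 2.19 and 1.58 to 0.185 and 0.329 FPKM. For these 5 both wild-type libraries were above both others, which passing the threshold favours, beside 32.1% of all genes. Of 12 immediate early genes, which tissue dissociation can raise, Jun and Fos fell and 0 rose; the groups were apart with higher values in the pair labelled knockout for 4 of them and lower for 6 (39.3% and 32.1% of all genes), and their sum was 2263 and 2572 FPKM in the wild-type pair, against 1979 and 2070 FPKM in the pair labelled knockout. Jun was at 286 and 254 against 73.6 and 81.0 FPKM and Fos at 316 and 509 against 149 and 152 FPKM. Of the 4 with higher values, Junb was at 302 and 529 against 683 and 739 FPKM (adjusted p = 0.14) and Nr4a1 at 44.4 and 82.4 against 148 and 135 FPKM (adjusted p = 0.091); Btg2 and Ier2 had differences of 0.72 and 0.47. The part of these genes, of epithelial content and of lymphocyte content in the calls of this list was not tested.

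Among 7 further mitochondrial chaperone and protease genes, all tested, 0 passed the threshold (limma; 1 at an unadjusted p under 0.05) and the median was -0.28. It was -0.14 and -0.12 on dropping the first and the second wild-type library and -0.11 on dropping the first one labelled knockout. Trap1, the mitochondrial HSP90, was at 28.7 and 29.1 FPKM in the wild-type pair, against 25.9 and 26.8 FPKM in the pair labelled knockout. The most abundant of these genes, the protease gene Clpp, was at 33.2 and 32.7 against 26.2 and 26.8 FPKM.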

How the data were processed

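Libraries of sorted-cell RNA were made with a low-input Clontech SMARTer mRNA kit, per the labels' protocols. The authors deposited 1 FPKM value per gene and library; FPKM is inferred from how the values behave, since the header does not name it. The build is mm9, per the submitters' processing notes. The aligner and the annotation: not given in the sources used here. Groups and numbers come from the titles. Of 24043 rows, 92 spike-ins, all at 0, were left out. limma 3.58.1 (R 4.3.3) was fitted to log2(FPKM + 1), which understates changes of low genes, for the 11138 genes reaching 1 FPKM in 2 or more libraries. Genotype was the only term, the prior was trended and robust, and p-values were adjusted by Benjamini-Hochberg over every gene fitted, with calls at 0.05. The same model was also run on simulated data built from the means and spread of these libraries, and its outcome is not used here. Relative depth came from whole-number ratios of low values (tolerance 0.2%; 59.2 to 64.4% of genes met it). With 2 libraries per group a permutation test cannot reach 0.05.

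The members, lists and rule for named genes were chosen with earlier results of these data known. The rule took all members, other pathway genes past the threshold (up to 6 a list, lowest p first) and the most abundant gene of a list; Stip1, Dnajc2, Dnajc5, Hspb6, Trap1, the ring chaperonin and the marker genes were named after their values were seen. Neutrophil, endothelial and fibroblast markers were also summed: 572 and 615 FPKM in wild-type against 1162 and 1240, 30.2 and 173 against 21.9 and 21.2, and 253 and 624 against 211 and 209. There were 3 neutrophil markers and 2 plasma cell markers that rose. The neutrophil marker Ltf went the other way, at 313 and 76.4 against 42.3 and 37.3 FPKM, and was a large part of the first wild-type sum. Alternatives were pseudocount, filter, scaling, prior, replicate block and leaving out each library.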

Additional observations from a re-analysis of the deposited data

How the results depend on the processing

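Of the 1837 genes called in all, 2 were called with no filter on low values, 501 with the replicate block, and between 0 and 7912 with 1 library left out (0 without either library labelled knockout, with 1385 and 1346 at an unadjusted p under 0.05; 7719 and 7912 on leaving out the first or the second wild-type one). The counts of heat shock and ER stress genes called higher and lower were 1 and 1 with a filter at 5 FPKM and ranged from 0 to 18 and from 0 to 26 with 1 library left out; they were 0 and 0 in the other settings. Of the other pathway genes 11 rose and 10 fell; the number higher was 7 after median centring, 0 with no filter, 2 with the replicate block and 0 to 57 with 1 library left out, and the number lower was 0 with no filter, 3 with the replicate block and 0 to 49 with 1 library left out. The 2 replicate numbers were not taken as pairs, since the deviations of same-numbered libraries had a correlation of -0.06; of the 21 other pathway calls 5 remained with the block. The sign turned for 2 genes after median centring (Dnajc3 -0.029 and Hsp90b1 -0.032) and for Dnajc3 after quantile normalization (-0.073). With 1 library left out the difference ranged from -2.10 to 0.39 for Asns, -0.45 to 0.16 for Atf4, -0.46 to 0.13 for Canx, -0.10 to 0.23 for Dnajc3, -0.67 to 1.56 for Hsp90aa1, -0.35 to 0.48 for Hsp90b1, -0.89 to 0.24 for Hspa1a, -0.90 to 0.25 for Hspa1b, -1.001 to 0.17 for Hspa5, -0.31 to 0.82 for Hspa9, -0.45 to 1.43 for Hspe1 and -0.017 to 0.95 for Phgdh. The cause was not tested. Read totals are not known, so no counting interval is given.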
